A study of Mus musculus with 179 samples.

Results

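The gene set described here joins the enzymes of glycolysis with genes that respond to low oxygen. Its 32 members were listed by name, out of the 32100 gene identifiers that were counted. They comprised 15 glycolytic enzymes, the glucose and lactate transporters Slc2a1, Slc16a1 and Slc16a3, the regulatory kinases Pdk1 and Pfkfb3, the transcription factor gene Hif1a, and 11 hypoxia targets (Egln1, Egln3, Vegfa, Ndrg1, Bnip3, Bnip3l, Adm, P4ha1, P4ha2, Ankrd37 and Ddit4). RNA was measured in single cells that form 1 group: wild type C57BL6 mouse exocrine pancreas, isolated as acinar cells, the enzyme-secreting cells of the gland, and grown for 9 days as organoids in Matrigel, a basement membrane gel. Each cell was deposited as a sample of its own, named Acinar and a number, and was profiled with Smart-seq3, which tags each captured RNA molecule at its 5′ end with a unique molecular identifier (UMI). The labels name no animal, culture or untreated control. Cells are therefore not replicates here, no test was made, and all values describe this population of cells.

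Glycolysis breaks glucose down to pyruvate, and lactate dehydrogenase turns pyruvate into lactate when it is not passed on to the mitochondria. When oxygen falls, prolyl hydroxylases of the EGLN family stop marking HIF-1α for destruction, and the stabilised factor binds DNA at the core sequences ACGTG and GCGTG near its targets. Those targets are known to include many glycolytic enzymes, the glucose transporter GLUT1, the angiogenic factor Vegfa, mitophagy receptors and the hydroxylases themselves. The question asked of the cells was whether the enzymes and the hypoxia targets moved together from cell to cell.

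The glycolytic enzymes did move together, and the hypoxia targets showed little correlation with them or with each other. Over the epithelial cells analysed, 10 of 14 measurable enzymes had a Pearson correlation of at least 0.3 with the sum of the other enzymes, whereas none of the 8 measurable hypoxia targets did. All of these targets but Ddit4 had a lower mean count than any of the 10 enzymes. The part of abundance in this contrast was not tested. Tpi1 (triosephosphate isomerase, r = 0.77), Pgk1 (phosphoglycerate kinase, r = 0.75) and Ldha (lactate dehydrogenase A, r = 0.74) had the highest values. The summed enzymes and the summed hypoxia targets had r = -0.13.

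The cells gave between 3258 and 329522 UMIs, with a median of 165267. For correlations, cells with at least 40000 UMIs and with less than 1000 CPM (a cell's UMIs of a gene, scaled to a common total) of a list of fibroblast genes were kept. This left out 32 cells, of which 18 were too shallow and 14 were over the fibroblast level, and the cells kept had 42594 to 329522 UMIs. All of them expressed the epithelial keratin Krt8, at 1702 CPM or more. The label calls the cells acinar, but the 12 genes of the acinar list summed to a median of only 118.9 CPM (range 0 to 211376), against a median of 8712 CPM for the 8 genes of the duct list. Because 1 UMI stands for 1 molecule tagged at its end, levels were compared between genes as CPM of UMIs without dividing by length. Levels pooled over all cells carry exact 95% Poisson intervals, which cover counting error only.

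Promoters of 6 members are shown because the results turn on these genes: Tpi1, Pgk1 and Ldha moved together most closely, Ddit4 held the largest share of the hypoxia target UMIs, and Vegfa and Egln3 had, among the targets with a promoter in the RefSeq table used, the highest and the lowest correlation with the rest of their list. Vegfa and Egln3 follow the rule for naming genes; the other promoters were picked after values were seen. Each runs 5′ to 3′ on the gene's strand, from 250 bases before to 50 bases after the start, in the GRCm38.p6 build. Capitals mark every match to ACGTG or GCGTG on either strand, so that CACGT and CACGC are the reverse-strand forms. The windows lie at chr6:124814109-124814408, minus strand (Tpi1), chrX:106186850-106187149, plus strand (Pgk1), chr7:46845554-46845853, plus strand (Ldha), chr10:59951721-59952020, minus strand (Ddit4), chr12:54203825-54204124, minus strand (Egln3) and chr17:46032328-46032627, minus strand (Vegfa).
Tpi1: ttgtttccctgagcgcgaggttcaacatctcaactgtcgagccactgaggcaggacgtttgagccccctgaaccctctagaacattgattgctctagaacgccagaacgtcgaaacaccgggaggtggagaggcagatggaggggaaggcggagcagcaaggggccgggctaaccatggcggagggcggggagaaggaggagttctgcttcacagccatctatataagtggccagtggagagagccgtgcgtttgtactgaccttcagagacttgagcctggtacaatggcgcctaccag
Pgk1: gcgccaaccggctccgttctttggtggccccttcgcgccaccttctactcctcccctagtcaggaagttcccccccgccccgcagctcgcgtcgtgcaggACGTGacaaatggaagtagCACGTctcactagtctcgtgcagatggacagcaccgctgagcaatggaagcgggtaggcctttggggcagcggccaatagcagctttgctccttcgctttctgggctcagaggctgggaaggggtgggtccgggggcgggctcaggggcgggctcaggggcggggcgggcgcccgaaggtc
Ldha: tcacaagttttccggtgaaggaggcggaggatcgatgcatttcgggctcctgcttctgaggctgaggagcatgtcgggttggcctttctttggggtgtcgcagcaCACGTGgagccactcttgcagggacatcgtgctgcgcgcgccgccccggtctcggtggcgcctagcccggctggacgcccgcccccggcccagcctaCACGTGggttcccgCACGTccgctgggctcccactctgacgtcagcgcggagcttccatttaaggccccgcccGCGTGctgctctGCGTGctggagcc
Ddit4: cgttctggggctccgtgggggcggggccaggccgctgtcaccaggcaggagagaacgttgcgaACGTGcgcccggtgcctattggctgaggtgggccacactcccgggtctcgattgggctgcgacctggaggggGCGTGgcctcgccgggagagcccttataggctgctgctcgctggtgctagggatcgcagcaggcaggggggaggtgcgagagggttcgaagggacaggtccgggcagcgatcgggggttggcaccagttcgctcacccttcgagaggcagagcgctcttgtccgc
Egln3: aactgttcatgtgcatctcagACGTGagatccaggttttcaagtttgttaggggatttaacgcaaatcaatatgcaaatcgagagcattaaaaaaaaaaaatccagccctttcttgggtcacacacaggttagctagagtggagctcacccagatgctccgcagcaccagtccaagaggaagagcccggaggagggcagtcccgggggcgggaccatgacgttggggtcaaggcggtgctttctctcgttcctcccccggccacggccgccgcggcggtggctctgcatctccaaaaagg
Vegfa: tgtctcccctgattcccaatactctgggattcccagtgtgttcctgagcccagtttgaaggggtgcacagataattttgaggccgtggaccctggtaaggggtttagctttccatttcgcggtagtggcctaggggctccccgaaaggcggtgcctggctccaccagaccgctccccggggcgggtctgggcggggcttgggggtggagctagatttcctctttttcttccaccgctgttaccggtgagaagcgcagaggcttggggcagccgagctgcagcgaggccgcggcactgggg

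These windows showed no shared arrangement of the core motif. The Ldha window held 7 matches, of which 4 form 2 copies of the palindrome CACGTG, which holds ACGTG on both strands. The Pgk1 and Ddit4 windows held 2 matches each and the Egln3 window held 1, while the Tpi1 window and the Vegfa window shown held 0. Whether matches go with correlation between genes was not tested.

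Across the set, 30 members had a promoter entry, and 24 of these first-listed windows (80%) held at least 1 match, against 43.8% of the 27025 genes in the table. ACGTG alone occurred in 60% of members' windows and in 19.7% of all genes' windows. Of the hypoxia targets 8 of 9 windows held a match, and of the enzymes 10 of 15. Of the 6 members with no match there, Aldoa, Pkm, Hk1 and Vegfa had one at another listed start. The members' windows were also richer in G and C, with a median of 65.2% against 52.7% over all genes, and the part of base composition in these shares was not tested. A match describes the letters in the window and is not evidence of binding.

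Of all UMIs, 0.712% came from the 32 members (7117 CPM), and the enzymes made up 86.6% of these. The 15 enzymes were pooled at 6164 CPM (95% interval 6135 to 6193) and the 11 hypoxia targets at 611 CPM (602 to 620). Over the cells kept, the summed enzymes ranged from 2069 to 10590 CPM around a median of 6385 CPM, and the summed hypoxia targets from 208 to 3344 CPM around a median of 509 CPM. The highest value was thus 1.66 times the median for the enzymes and 6.57 times the median for the hypoxia targets. Both highest values came from 1 cell, Acinar155, and the next cell had 1454 CPM of hypoxia targets.

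**Figure D1:**
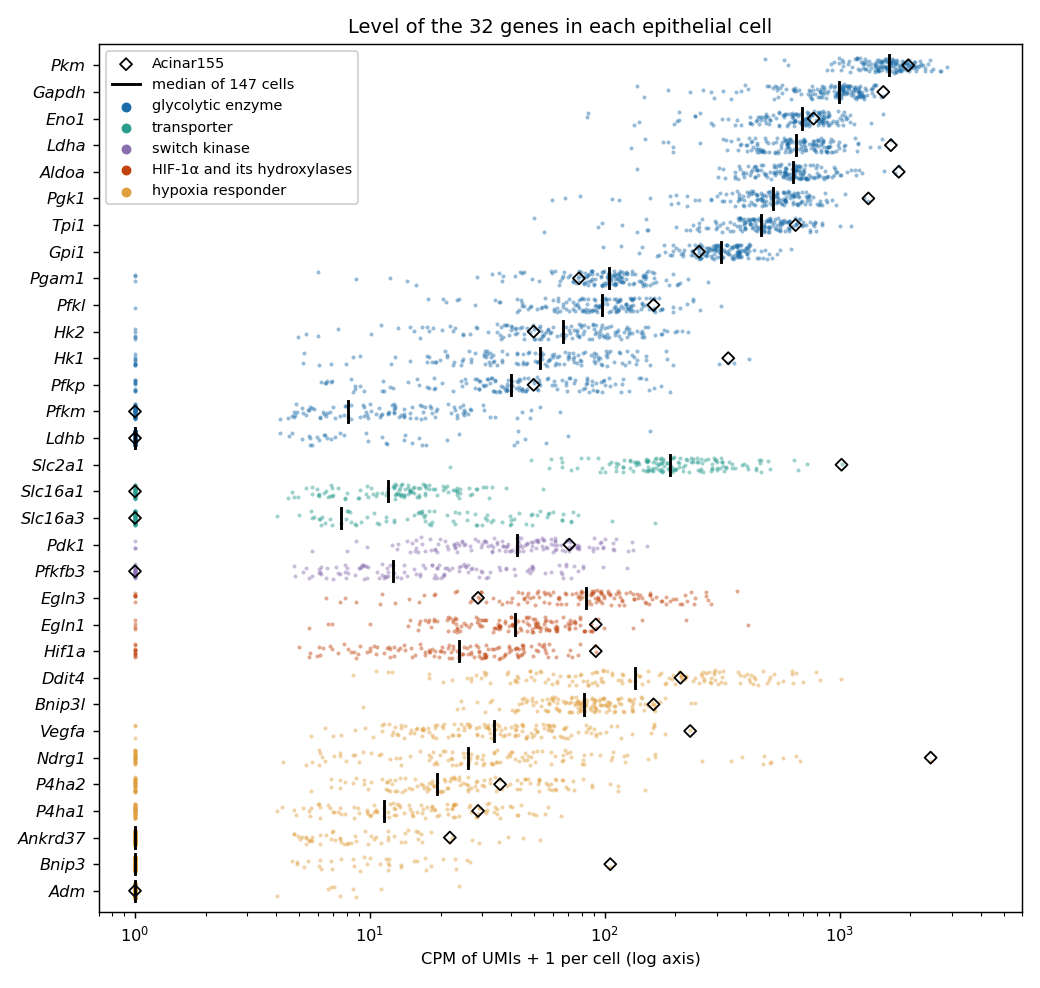
Level of each member in each epithelial cell, as CPM of UMIs plus 1 on a log axis; points are cells, black bars are medians, open diamonds are the cell Acinar155 and colours mark the role. The 8 most abundant enzymes, Pkm to Gpi1, had a UMI in every cell shown, whereas Adm, Bnip3, Ankrd37 and Ldhb had a median of 0.

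Most of the trunk of the pathway was detected in every epithelial cell kept. Pkm, which encodes pyruvate kinase M and makes the pyruvate, was the most abundant member at 1562 CPM pooled, and ranged from 478 to 2856 CPM over the cells around a median of 1614 CPM. Gapdh, which oxidises glyceraldehyde 3-phosphate, followed with a pooled level of 912 CPM (range 136.7 to 1533, median 988). Eno1 (enolase 1, 677 CPM), Ldha (663 CPM), Aldoa (aldolase A, 650 CPM), Pgk1 (514 CPM), Tpi1 (467 CPM) and Gpi1 (glucose-6-phosphate isomerase, 314 CPM) came next. None of these 8 genes was at 0 in any epithelial cell kept, and the lowest value among them was 48.8 CPM (Tpi1). Pgam1, the phosphoglycerate mutase that works between Pgk1 and Eno1, was lower at 104.1 CPM.

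The levels of several of these enzymes are uncertain because near-identical gene copies took UMIs of their own. Genes with at least 95% identity to Gapdh over 500 bases or more, 83 in number, held 73.6% as many UMIs as Gapdh itself. For Eno1 the share was 56.8%, mostly from Eno1b (31.8%) and the pseudogene Gm4735 (24.9%). For Pgam1, Pgk1, Bnip3l and Gpi1 it lay between 10.4% and 13.2%, for Ldhb it was 18.4% and for Bnip3 7.97%, whereas for Ldha it was 1.46% and for Pkm 0.582%.

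The enzymes that commit glucose to the pathway were scarcer and split between isozymes. Hexokinase, which phosphorylates glucose, was made from Hk2 (70.1 CPM, 52.3% of hexokinase UMIs of these 2 genes) and Hk1 (64.01 CPM, 47.7%), and the 2 genes had r = -0.25 over the cells. Hk1 was the higher of them in 61 of the epithelial cells and Hk2 in 80. Phosphofructokinase, the committed step, came mainly from the liver-type gene Pfkl (101.3 CPM, 63.1% of the family's UMIs), with Pfkp at 49.3 CPM (30.7%) and the muscle-type gene Pfkm at 9.88 CPM (6.16%). Pfkl and Pfkp had r = 0.04.

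Lactate dehydrogenase and the lactate carriers were dominated by 1 gene or shared unevenly. Ldha held 99.2% of the UMIs of Ldha and Ldhb and was the higher of them in every epithelial cell kept. Outside the members, Ldhd was pooled at 18.9 CPM and Ldhc at 1.87 CPM. Ldhb, the heart-type subunit, had a pooled level of 5.68 CPM and a UMI in 47 of all cells, with its highest value, 154.5 CPM, in Acinar132. Slc2a1, the glucose transporter GLUT1, was the most abundant transporter at 224 CPM (range 20.9 to 1017, median 188.5). The lactate exporter Slc16a3 (MCT4) was pooled at 18.7 CPM and Slc16a1 (MCT1) at 10.6 CPM. Per cell the order was not the same, with medians of 6.51 CPM for Slc16a3 (highest 162.6) and 10.99 CPM for Slc16a1, and Slc16a3 was the higher in 56 epithelial cells and Slc16a1 in 59. Acinar5, a cell with collagen genes, held 83 of the 521 Slc16a3 UMIs.

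The regulatory kinases were low. Pdk1, which inhibits pyruvate dehydrogenase and so keeps pyruvate out of the mitochondria, was pooled at 44.6 CPM (range 0 to 150.97, median 41.5). Pfkfb3, which makes the activator of phosphofructokinase, was pooled at 18.4 CPM and had a UMI in 80.3% of the epithelial cells. At the median depth of these cells 1 UMI equals 5.81 CPM, so the lowest levels rest on a few molecules.

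Oxygen sensing was represented by Egln3 more than by Egln1. Hif1a, the gene of HIF-1α, was pooled at 25.4 CPM (range 0 to 90.6, median 23.0). The hydroxylase genes Egln3 and Egln1 were at 85.8 and 49.5 CPM, and Egln3 held 63.4% of their UMIs. Egln2, a gene of the same family outside the members, was at 40.4 CPM and is not in that share. Egln3 was the higher in 69.4% of the epithelial cells and Egln1 in 28.6%, and they had r = -0.13 over the cells.

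Ddit4 led the hypoxia targets. Ddit4, which encodes an inhibitor of mTORC1 signalling that stress induces, was pooled at 210 CPM, held 34.4% of the hypoxia target UMIs, and ranged from 7.50 to 1012 CPM around a median of 133.5 CPM. Of the mitophagy receptor genes, Bnip3l (86.9 CPM) held 95.5% of the UMIs and was the higher gene in every epithelial cell kept. Bnip3 had 4.06 CPM and a UMI in 36 of these cells. Vegfa was at 49.7 CPM and Ndrg1, a stress-responsive gene, at 69.6 CPM. The prolyl 4-hydroxylase genes of collagen, P4ha2 and P4ha1, were at 28.8 and 21.6 CPM. Ankrd37 reached 4.42 CPM, and Adm, the adrenomedullin gene, had 14 UMIs in 9 of all cells (0.503 CPM, 95% interval 0.275 to 0.844).

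Variation between cells was then compared with genes of like abundance. For each of the 28 members whose mean reached 1 UMI per cell, the variation left after removing counting noise (the squared coefficient of variation minus its Poisson share) was divided by the running median of 100 genes of similar mean. Ldhb, Bnip3, Adm and Ankrd37 fell below that mean and were not assessed. Of the 28, 10 were at 2 times the running median or more, against 27.7% of 11738 genes.

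Ndrg1 and Ddit4 varied most, and the trunk enzymes varied like other genes of their abundance. Ndrg1 stood at 45.5 times the running median, or 15.9 times without the cell Acinar155, and Ddit4 at 6.85 times. Hk1 (4.49), Slc16a3 (3.68), Egln3 (3.64) and Vegfa (3.21) came next. Among the trunk enzymes, Pkm was at 1.08, Tpi1 at 1.03, Gapdh at 1.17 and Gpi1 at 0.53, and the highest was Ldha at 1.52.

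For the question of joint movement, the UMIs of each list were summed per cell, expressed as log2(CPM + 10) and correlated over the epithelial cells. In each cell both sums share the same total as denominator, and the labels do not say which cells were prepared together. Depth was uneven over the title numbers. Cells numbered 97 to 120 had a median of 43006.5 UMIs, and 12 of these 24 cells were kept. Every other run of 24 title numbers had a median of 125349 UMIs or more. The enzymes and the hypoxia targets had a Pearson r of -0.13 and a Spearman rho of -0.17. Without Acinar173 and Acinar90, the cells farthest from the median of the enzyme sum, these became -0.11 and -0.15, and without Acinar155, the cell highest in both sums, r was -0.21. Neither sum followed depth, with r of 0.05 (enzymes) and -0.08 (hypoxia targets) to log2 UMIs per cell.

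**Figure D2:**
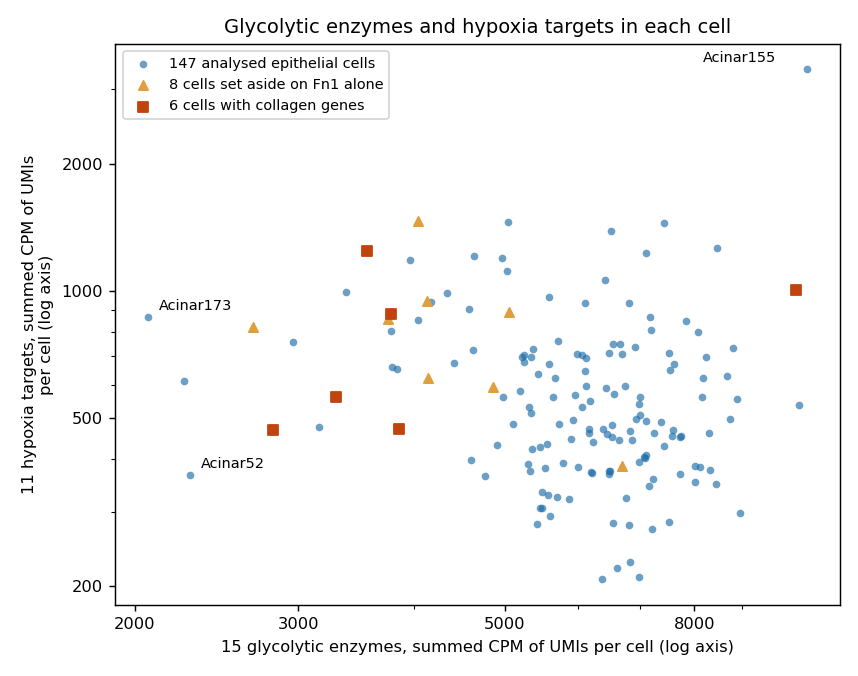
Summed hypoxia targets against summed glycolytic enzymes, both as CPM of UMIs per cell on log axes; circles are the epithelial cells, squares the 6 cells with collagen genes and triangles the 8 cells set aside on Fn1 alone. The cloud of epithelial cells has no clear slope (r = -0.13), and Acinar155 stands alone at 10590 and 3344 CPM.

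The relation was weak, and its sign depended on the setting. The r was below 0 in 26 of 31 settings and in 7 of 8 blocks of 24 title numbers. The settings reuse mostly the same cells, and 11 of them leave out 1 target in turn, so their tally is not separate support for a sign. In cells with title numbers up to 96 r was -0.27 (rho -0.35, n = 73) and in cells with numbers from 97 it was -0.03 (rho 0.00, n = 74). Over the blocks it ran from -0.67 to 0.18. Without Ddit4 among the targets r was 0.16, and without both Ddit4 and Ndrg1, a choice made after seeing the data, it was 0.21. Over the 31 settings r lay between -0.27 and 0.21 and reached neither 0.3 nor -0.3.

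Gene by gene, the enzymes stood out from the background. Each gene was set against the sum of the enzymes with that gene left out, and r of at least 0.3 was reached by 12 of the 28 members, against 8.91% of 11738 genes (r of at most -0.3 was reached by 0 members and 3.88% of genes). The 12 were Tpi1, Pgk1, Ldha, Eno1 (0.72), Gapdh (0.62), Pgam1 (0.60), Pkm (0.56), Aldoa (0.55), Pfkl (0.49), Gpi1 (0.45), Pdk1 (0.35) and Slc16a3 (0.32). Tpi1 ranked highest of all 11738 genes, and Pgk1, Ldha and Eno1 were above the 99.9 percentile. The enzymes below 0.3 were Pfkp (0.17), Hk2 (-0.07), Hk1 (-0.11) and Pfkm (-0.13), all of them isozymes of the hexokinase and phosphofructokinase steps. They also had the lowest mean counts of the enzymes, 1.69 (Pfkm) to 12.5 (Hk2) UMIs per cell, against 17.8 (Pfkl) or more for the other 10. The share over all genes was not matched for abundance, and the part of abundance in this split was not tested. Slc16a3 fell below 0.3 in 6 of 14 other settings and Pdk1 in 3 of 16, whereas the 10 enzymes stayed above it in all 16.

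The hypoxia targets spread over the background in the same measure. Their r to the enzymes ran from 0.25 for Egln3 to -0.29 for Ddit4, with a median of 0.01, and over all genes the median was 0.00. Slc2a1, a known HIF-1 target, was at 0.16 and Hif1a at 0.13.

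**Figure D3:**
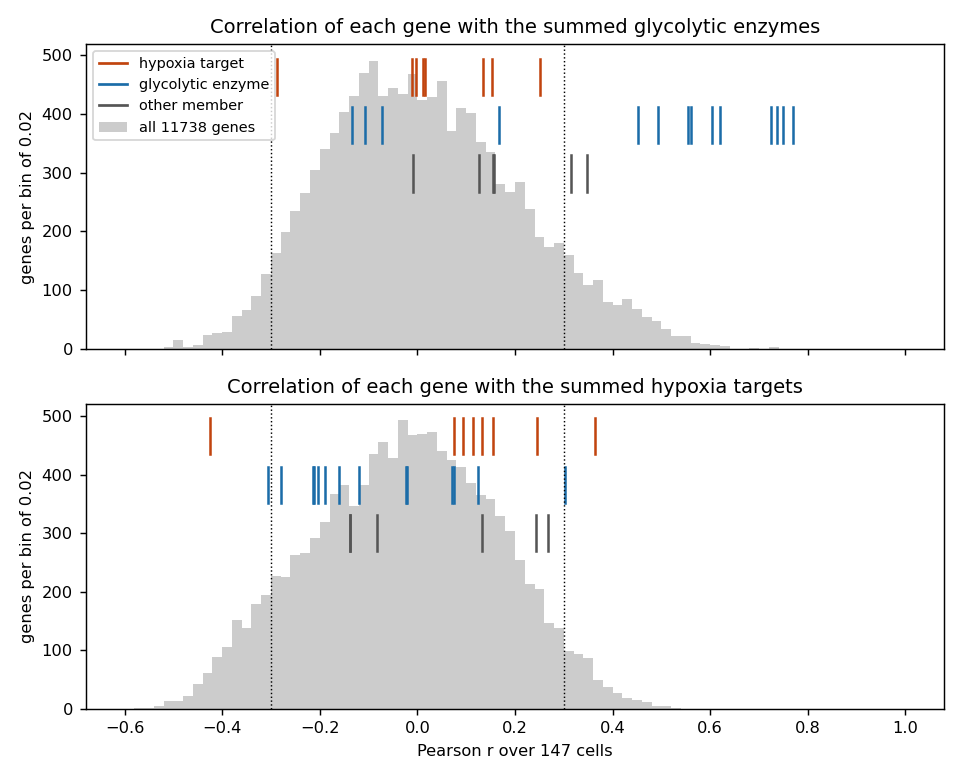
Distribution over 11738 genes of Pearson r with the summed enzymes (upper panel) and with the summed hypoxia targets (lower panel), with the members as coloured ticks and dotted lines at 0.3 and -0.3. In the upper panel 10 enzyme ticks lie right of 0.3 and no hypoxia target does, and in the lower panel most ticks of both kinds lie between the dotted lines.

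Against the sum of the hypoxia targets, few members stood out, the targets included. Bnip3l (r = 0.36) and Hk1 (r = 0.30) reached 0.3, which is 2 of 28 members against 3.82% of all genes. Egln3 (r = -0.42) and Pfkp (r = -0.31) were at -0.3 or below, 2 of 28 against 8.66% of all genes. Below the threshold, Hif1a had r = 0.27, Vegfa 0.25, Slc2a1 0.24, Ndrg1 0.16 and Ddit4 0.13. Egln3, a hydroxylase that HIF is known to induce, thus ran against the sum of the other targets in these cells. Its r to that sum lay between -0.48 and -0.24 over 16 other settings. With single measurable targets its r ran from -0.06 (P4ha2) to -0.32 (Ddit4, which held the largest share of the target UMIs). The r of Hk1 was at 0.3 only narrowly, and 9 of its 16 other settings fell below that value, among them 0.26 without Acinar155. Pfkp lost its call in 8 of 16 settings, and Bnip3l in 2, with r = 0.18 in cells thinned to 40000 UMIs and 0.22 after depth and cell cycle were regressed out.

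Pairs of genes gave the same picture. Among the 91 enzyme pairs the median r was 0.23, and 39 pairs (42.9%) reached 0.3. Among the 28 hypoxia target pairs the median was 0.09 and 2 pairs (7.14%) reached 0.3. Between the lists the median over pairs of an enzyme and a target was 0.02, with 5 pairs (4.46%) at 0.3 or above and 6 at -0.3 or below. Over all pairs of 11738 genes the median was 0.02 with 3.15% at 0.3 or above, and over genes with a mean of at least 5 UMIs it was 0.03 with 6.69%.

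The closest enzyme pairs were Tpi1 with Pgk1 (r = 0.74), Tpi1 with Ldha (r = 0.73) and Tpi1 with Eno1 (r = 0.70). Their genes lie on chromosomes 6, X, 7 and 4. Between the lists the highest values were Hk1 with Ndrg1 (0.45, or 0.41 without Acinar155), Tpi1 with Egln3 (0.34) and Pgam1 with Egln3 (0.32), and the lowest was Hk1 with Egln3 (-0.45). Ddit4 took part in 5 of the 6 lowest pairs between the lists, with Pgk1 at -0.39, Tpi1 and Gapdh at -0.33, Ldha at -0.32 and Pfkp at -0.31. Within the targets the only pairs at 0.3 were Vegfa with Ndrg1 (0.31, or 0.25 without Acinar155) and Egln1 with P4ha2 (0.30).

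**Figure D4:**
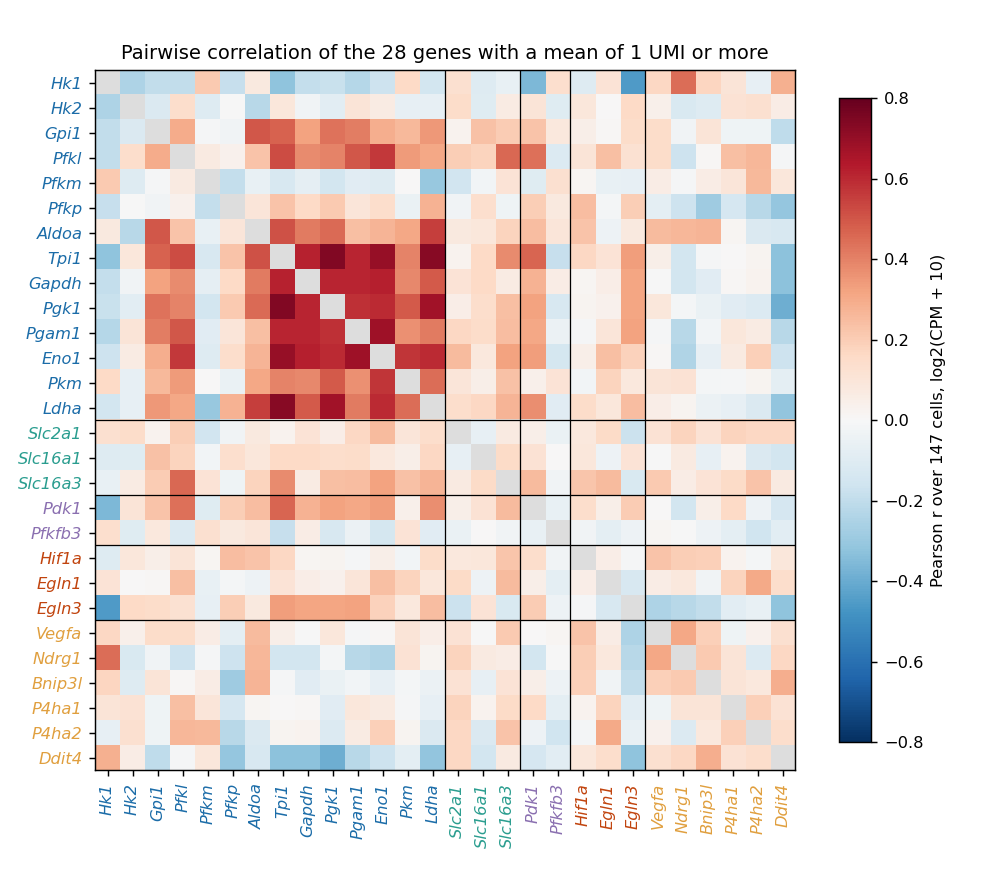
Pearson r of log2(CPM + 10) over the epithelial cells for each pair of the 28 members that reached a mean of 1 UMI, grouped by role; red is positive and blue negative. The red block holds Gpi1, Pfkl and the enzymes from Aldoa to Ldha, up to 0.74. Pfkm and Pfkp, placed inside it, had r of at most 0.28 with these enzymes. The hypoxia responders at the lower right stay between -0.11 and 0.31.

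**Figure D5:**
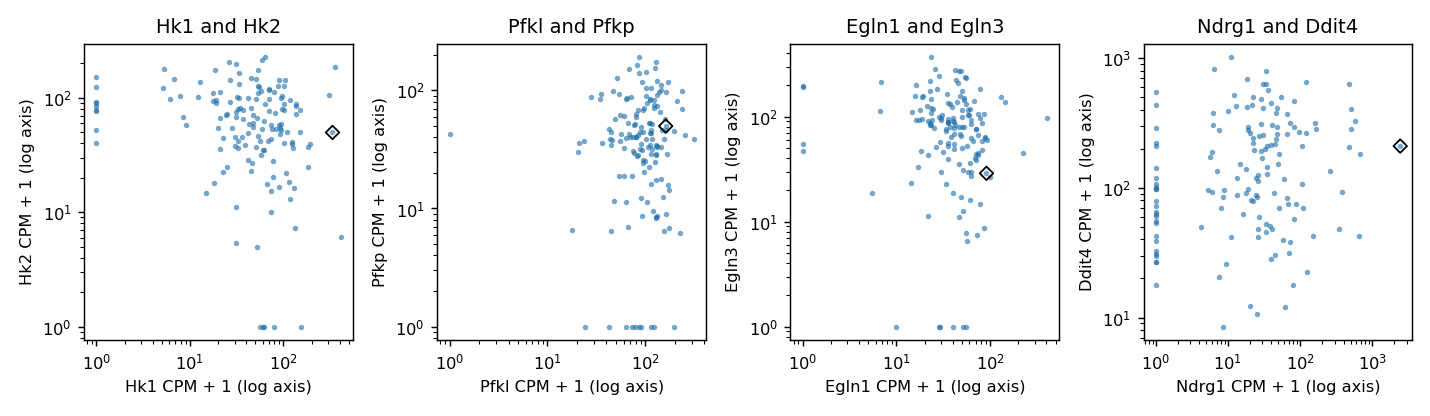
CPM of UMIs plus 1 on log axes in each epithelial cell for Hk1 and Hk2, Pfkl and Pfkp, Egln1 and Egln3, and Ndrg1 and Ddit4; the open diamond is Acinar155. None of the 4 pairs rises along a line, with r of -0.25, 0.04, -0.13 and 0.17.

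Few of the other pathway genes listed beside the members followed either sum. Of 38 further genes of glycolysis and its borders, 36 had an entry and 21 reached a mean of 1 UMI, and 1 of these 21 reached 0.3 with the enzymes, Eno1b (0.69), the near copy of Eno1, against 8.91% of all genes. The most abundant of them were Eno1b (215 CPM), Bpgm (133.8 CPM), Pgm1 (104.1 CPM) and Pdha1 (81.1 CPM). Of 33 further hypoxia genes 28 were measurable, and 2 reached 0.3 with the enzymes, Mif (r = 0.63) and Higd1a (r = 0.63), while 2 were at -0.3 or below, Mxi1 (-0.38) and Plod2 (-0.36); over all genes the shares were 8.91% and 3.88%. The most abundant were Mif (487 CPM), Higd1a (187.6 CPM), Car9 (150.7 CPM) and Fam162a (136.5 CPM). With the summed hypoxia targets 1 of the 28 reached 0.3, Mxi1 (0.32), and 2 were at -0.3 or below, Stc2 (-0.37) and Tfrc (-0.30), against 3.82% and 8.66% of all genes.

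Most nuclear genes of oxidative phosphorylation ran with the enzymes and against the hypoxia targets. Of the 7 pentose phosphate genes, 4 (Tkt at 0.57, Taldo1 and Pgd at 0.45, G6pdx at 0.32) reached 0.3 with the enzymes, where 8.91% of all genes did. Of 21 nuclear genes of oxidative phosphorylation 18 did so, and of 15 genes of the citric acid cycle 8. With the hypoxia targets, 13 of the 21, 6 of the 15 and 1 of the 7 pentose phosphate genes (Tkt, -0.37) were at -0.3 or below, against 8.66% of all genes. As sums, oxidative phosphorylation had r = 0.58 (rho 0.34) with the enzymes and -0.46 (rho -0.53) with the hypoxia targets.

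Cell cycle genes and composition moved with the sums too. The S phase list had r = 0.32 with the enzymes (rho 0.28) and -0.45 with the hypoxia targets (rho -0.39), and the G2/M list had 0.29 and -0.45 (rho 0.28 and -0.40). Ribosomal protein genes had 0.48 and -0.29 (rho 0.22 and -0.22), and mitochondrially encoded genes -0.38 and 0.22 (rho -0.39 and 0.22). The duct list had 0.52 and 0.00 (rho 0.33 and -0.01), and the epithelial list 0.27 and 0.37 (rho 0.19 and 0.29). When depth and both cell cycle lists were regressed out, the enzymes and the hypoxia targets had r = 0.04. The part of composition and of cell identity in these values was not tested.

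Outside the members, the genes closest to the enzyme sum, among 6566 genes that reached a mean of 5 UMIs, were Gm4735 (r = 0.72), Eno1b (0.69), Prelid1 (0.69), Gm10053 (0.66) and Txn1 (0.65). Gm4735 and Eno1b are near copies of Eno1, and Txn1 encodes thioredoxin. Closest to the hypoxia target sum were Ctsd (0.53), Cldn4 (0.53), Cttnbp2nl (0.52), Tmc4 (0.51) and Gtpbp2 (0.51). Ctsd encodes the lysosomal protease cathepsin D and Cldn4 a tight junction protein that is also on the epithelial list.

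A single cell, Acinar155, held the strongest combination of glycolytic and hypoxic transcripts. It was singled out after its values were seen and had 143532 UMIs. It ranked first among the epithelial cells in both sums, with 10590 CPM of enzymes and 3344 CPM of hypoxia targets, and first for 9 members. Among the 28 members that reached a mean of 1 UMI it ranked first for 8 (Aldoa, Gapdh, Pgk1, Ldha, Slc2a1, Hif1a, Vegfa and Ndrg1), against 1.46% of 11738 genes. No other kept cell led more than 4 members. Because the cell was picked on its values of these same members, its count of first ranks is a description and not separate support.

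Ndrg1 in Acinar155 was at 2438 CPM (350 UMIs, 95% interval 2190 to 2708), against a median of 25.2 CPM and a highest value of 675 CPM in the other epithelial cells. Slc2a1 was at 1017 CPM, against a median of 187.2 CPM and a highest value of 727 CPM in the others. Vegfa was at 230 CPM (158.3 to 323) against a median of 32.7 and a highest value of 179.5 CPM, and Bnip3 at 104.5 CPM (15 UMIs) against a highest value of 25.7 CPM. For 6 of the 8 first ranks (Aldoa, Gapdh, Pgk1, Ldha, Hif1a and Vegfa) the counting interval of Acinar155 held the value of the next cell, and for Ndrg1 and Slc2a1 it did not.

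Not every member was high in Acinar155. It had 0 UMIs of Pfkm, Ldhb, Slc16a1, Slc16a3, Pfkfb3 and Adm, a count that allows up to 20.9 CPM (3 UMIs), and Egln3 was at 27.9 CPM against a median of 82.8 CPM in the others. Ddit4, at 209 CPM, ranked 58. Of the 33 further hypoxia genes, Car9 (453 CPM, next kept cell 378), Ak4 (90.6, next 57.1) and Hmox1 (390, next 193) were highest in Acinar155. Angptl4 (529 CPM) and Higd1a (369 CPM) ranked second. Ak4 rests on 13 UMIs, as Hif1a does, and the counting interval at that count, 48.2 to 154.9 CPM, holds 57.1 CPM. No interval was made for Car9 (65 UMIs) or Hmox1 (56 UMIs). Others of that list were not high. Car12, Epas1, Hif3a, Stc2, Lox, Loxl2, Plod2, Epo, Cited2 and Ppp1r3c had 0 UMIs in Acinar155. Fam162a, Stc1, Mif and Tfrc lay below the median of the other cells. Krt8 (12290 CPM) was also highest in Acinar155 among the kept cells, and its acinar list stood at 9942 CPM, mostly Ctrb1 (9670 CPM). Its mitochondrially encoded share, 1.06% of UMIs, was near the median of 0.991%.

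In the 14 cells over the fibroblast level, 6 carried collagen genes and 8 were over it through fibronectin (Fn1) alone, with Krt8 at 6178 CPM or more. The 6 collagen cells had Col1a1 between 1215 and 3794 CPM, against at most 20.2 CPM in the epithelial cells, and Krt8 between 244 and 1879 CPM. They are cells of 1 population and not replicates, and their values are given side by side.

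P4ha1, which hydroxylates collagen chains, was at 276, 200, 286, 150, 120 and 95.3 CPM in the 6 collagen cells (Acinar5, Acinar6, Acinar44, Acinar105, Acinar182 and Acinar188), against a median of 10.5 CPM (range 0 to 64.05) in the epithelial cells. Every collagen cell lay above every epithelial cell; P4ha1 was the only one of the 28 members with that property, which 0.264% of 11738 genes had, and 0 members lay wholly below (0.102% of genes). The pooled level of P4ha1, 21.6 CPM, includes these cells. Vegfa was at 276, 219, 324, 31.3, 142.1 and 72.9 CPM in the same cells, against a median of 32.8 CPM (range 0 to 230) in the epithelial cells, so that the groups overlapped.

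The enzyme sum was below the epithelial median of 6385 CPM in 5 of the 6 collagen cells, at 3775, 3554, 2817, 3290 and 3853 CPM, while Acinar5 had 10295 CPM. A low sum was not limited to collagen cells, since the 8 Krt8-rich Fn1 cells had a median of 4134 CPM. Tpi1 was at 855 CPM in Acinar5 and between 126.6 and 219 CPM in the others, and had a median of 260 CPM in the Fn1 cells, against an epithelial median of 463 CPM. Acinar5 also had 364 CPM of Slc16a3, above the highest epithelial value of 162.6 CPM. Egln3 had a median of 13.1 CPM in the collagen cells (range 0 to 107.8) and of 9.76 CPM in the Fn1 cells (highest 24.1), against 82.5 CPM in the epithelial cells.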

How the data were processed

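RNA of 179 single cells was measured with Smart-seq3. The authors deposited UMI counts and read counts, raw whole numbers per cell for 32100 gene identifiers, of which 31985 matched a symbol. STAR, featureCounts, GRCm38 and mm10 are named per the submitters' processing notes; versions and the way UMIs were collapsed are not given in the sources used here. No doublet caller was run, since each sample is labelled as a single cell.

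Members and lists were chosen with earlier results of these data known. Pooled CPM used cells with at least 1000 UMIs, and correlations used 147 cells with at least 40000 UMIs and under 1000 CPM of 10 fibroblast genes, on log2(CPM + 10), and took in genes that averaged 1 UMI per cell or more. A gene was called at r of 0.3 or more, or -0.3 or less, with the gene taken out of its sum. All 147 cells share 1 group, so no test or p-value was made, and intervals cover counting error only. Correlation and variation steps were tested on simulated data. Near copies were found with BLAST 2.17.0 (95% identity over 500 bases). Named genes were all members, the 4 most abundant genes of each further pathway list, the 5 genes closest to each sum, and the 3 closest pairs within and between lists; further pairs, genes and cells were named after their values were seen. Promoters come from RefSeq (GRCm38.p6); Bnip3l and Ndrg1 had no entry. Alternatives covered read counts, other pseudocounts, depth, thinning, other totals, scran 1.30.0 size factors, ranges and blocks of title numbers, other cell sets, and lists without leading genes. Other software was R 4.3.3, matplotlib 3.10.9, scipy 1.17.1, pandas 2.3.3, numpy 2.4.6 and Python 3.11.15.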

Additional observations from a re-analysis of the deposited data

How the results depend on the processing

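No paired analysis was possible because the cells form 1 group. The median r within enzymes (0.16 to 0.30), the median between the lists (-0.03 to 0.09) and the count of members at r of 0.3 or more with the enzymes (10 to 13) moved little over 16 settings each. Of 254 r values of single members, 225 stayed past the threshold, 29 did not and 0 changed sign. The pooled enzymes were at 6629 CPM from read counts, 6106 with equal weight per cell, 6296 in epithelial cells, 6205 and 6107 in title numbers up to 96 and from 97, 6942 without mitochondrial and ribosomal protein genes in the total, and 7345 with near-identical copies added. The pooled hypoxia targets were at 544, 589, 595, 633, 688 and 621 CPM in the same settings other than equal weight, and at 597 without Acinar155. The r of the sums was 0.00387 in all epithelial cells with at least 1000 UMIs, -0.27 and -0.0265 in title numbers up to 96 and from 97, 0.0356 as residuals after depth and cell cycle, 0.0945 from z-scores, 0.16 without Ddit4 and 0.21 without Ddit4 and Ndrg1. In cells thinned to 40000 UMIs the median within hypoxia targets was -0.00703. The 2 members at 0.3 or more with the hypoxia targets became 0 in thinned cells and 1 with a pseudocount of 1, without mitochondrial and ribosomal protein genes in the total, in title numbers up to 96, without cells of at least 10000 acinar CPM, as residuals, with the fibroblast list without Fn1 and without Acinar155. The 2 at -0.3 or less became 0 in all epithelial cells with at least 1000 UMIs and 1 with read counts, a pseudocount of 1, thinned cells, scran size factors and residuals. The excess variation of Ndrg1 was 15.9 times the running median without Acinar155. The cause of these shifts was not tested. The settings without Acinar155, without Fn1 in the fibroblast list, without Ddit4 and Ndrg1 and with copies added were chosen after seeing the data. Genes with a mean below 5 UMIs rest on few molecules, so a low r there says little at this depth.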
